A study of Mus musculus with 59 samples.

Results

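The genes described are the nuclear genes for mitochondrial ribosomal proteins in the prefrontal cortex of young mice. They were chosen as protein-coding genes whose symbol begins with Mrpl or Mrps and a number. The rule found 78 genes, 49 with Mrpl and 29 with Mrps symbols, among 51456 gene identifiers, and all 78 had a mean normalized count of at least 10, the minimum for testing, as did 16919 genes in all. The mice had the strain C57BL/6J and were either wild type (WT) or heterozygous for Ank2 (HT), the gene for the membrane adaptor ankyrin-B. They received vehicle, fluoxetine or lithium through maternal milk from postnatal day 3 to 24, for 3 weeks, and tissue was taken at day 25. There were 10 libraries each of WT vehicle, WT lithium, HT vehicle, HT fluoxetine and HT lithium, and 9 of WT fluoxetine. Each of these 6 groups held both sexes, with 5 libraries a sex except 4 for WT fluoxetine males. The vehicle, the doses, the dams and the litters are not given in the sources used here, so pups of a group may share a dam, and p-values measure the spread between these libraries.

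Mitochondria translate the small set of proteins encoded by mitochondrial DNA, all of them subunits of the respiratory chain and ATP synthase, on a ribosome of their own. Its rRNAs come from mitochondrial DNA, while every ribosomal protein is encoded in the nucleus, made in the cytoplasm and imported. Many of these proteins descend from bacterial ribosomal proteins and others were added in the mitochondrial lineage, and neurons depend strongly on the oxidative phosphorylation that this ribosome supplies. Symbols do not always give the subunit. Mrps30 and Mrps18a encode large subunit proteins, and the Mrps36 product is known as a component of the oxoglutarate dehydrogenase complex rather than of the ribosome.

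The values are estimated counts that the authors normalized between libraries, and a library's values summed to between 30.3 and 33.8 in units of 1e6 (median 32.3). Ank2 itself, which checks the genotype labels, was at 23284 or higher in every WT vehicle library (mean 28471, SD 2077) and at 21059 or lower in every HT vehicle library (mean 19578, SD 660). HT fluoxetine female 2 and WT fluoxetine male 1 stood apart from their groups by correlation, and HT fluoxetine female 2 held choroid plexus markers at a summed 79432 against at most 506 in any other group. The same library was highest for 3 dentate gyrus markers, with a mean log2 deviation of 5.67 against at most 0.70 in any other group. For 7 oligodendrocyte markers it was at 1.61 against at most 0.63. The summed level of 9 striatum markers spanned 5413 to 22216 between libraries. Markers of excitatory neurons were present in every library (summed 110160 to 191790). Blood cell markers were lower with fluoxetine, 3 of 5 called in WT and 4 of 5 in HT, where 7.78% and 7.38% of all tested genes were. The summed level of 6 olfactory bulb markers spanned 184 to 9381 between libraries. Their median log2 change was -1.09 with fluoxetine and -0.77 with lithium in HT and -0.30 and -0.17 in WT, with 0 of 6 called in each, and their part in the results was not tested. In bulk tissue, fewer cells of a type and less RNA per cell cannot be told apart.

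Transcripts of the mitochondrial ribosome were of moderate and rather even abundance. Mean normalized counts ran from 115 for Mrpl23 to 1764 for Mrpl3, with a median of 696 against 545 over all tested genes. Their annotated transcripts are short, with a median of 1052 nt against 2191 nt over all tested genes. Per kilobase of annotated transcript, the highest levels were those of Mrpl20 (2247), Mrps17 (1902), Mrps21 (1844), Mrpl48 (1834) and Mrps33 (1752), and the median was 543. The lowest were those of Mrpl1 (115), Mrpl47 (125), Mrps30 (135), Mrpl32 (157) and Mrps16 (159). The genes lie on 17 chromosomes, none of them X or Y. The value of Mrpl23 is uncertain, because the pseudogene Mrpl23-ps1, at a mean of 356, may share reads with it.

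Most calls among these genes came with fluoxetine, and most of them were lower. In WT, 32 of 78 genes fell and 1 rose in fluoxetine against vehicle, where 7.78% of all tested genes fell and 7% rose (adjusted p under 0.05 after Benjamini-Hochberg adjustment over all 16919 genes, limma). The median log2 change of the 78 genes was -0.11, and 68 were below 0, against a median of 0.00 over all genes. In HT, 22 fell and 2 rose, where 7.38% of all genes fell and 6.63% rose, with a median of -0.08 and 67 below 0. The changes were small: the lowest was -0.45 on the log2 scale in WT and -0.54 in HT, both for Mrpl33.

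The level of the whole group was also followed library by library. The mean log2 deviation of the 78 genes from their averages over all libraries averaged 0.0526 (SD 0.0233) over the 10 WT vehicle libraries and -0.0698 (SD 0.0376) over the 9 with fluoxetine. Every WT fluoxetine library, at -0.114 to -0.00438, lay below every WT vehicle library, at 0.00456 to 0.0921. In HT the groups overlapped, because the library of HT vehicle female 1 was at -0.124, while the other 9 HT vehicle libraries were at -0.00285 or higher and HT fluoxetine ran from -0.155 to -0.00860. WT lithium, at -0.00869 to 0.0804, overlapped WT vehicle, and HT lithium ran from -0.107 to 0.120.

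**Figure D1:**
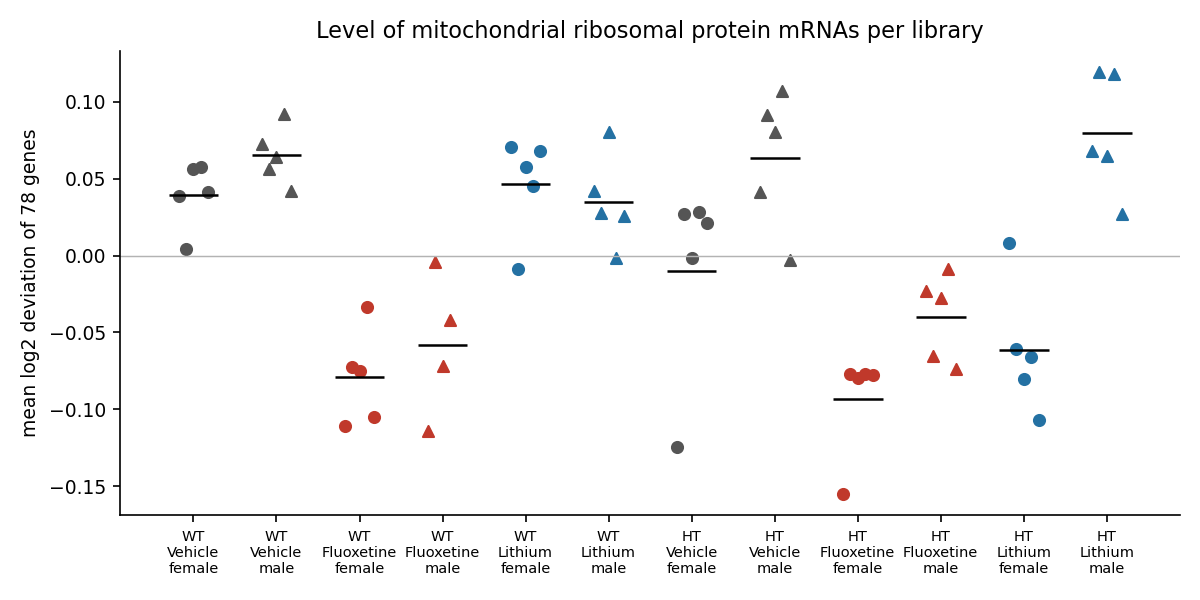
Mean log2 deviation of the 78 genes from their averages over all 59 libraries (y axis) in each library, by genotype, drug and sex (x axis); points are libraries, circles female and triangles male, and bars are group means. WT fluoxetine libraries (up to -0.00438) lie below all WT vehicle libraries, and HT vehicle female 1 (-0.124) lies apart from the other 4 of its group.

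By role, the proteins of the large subunit with a bacterial homologue were the largest class and so could supply the most called genes. All counts by class are to be read against the 7.78% of all tested genes that fell in WT and the 7.38% in HT. For risen genes the shares were 7% and 6.63%. Of these 30 proteins, 14 fell in WT and 10 in HT, with median log2 changes of -0.12 and -0.12. Of the 21 large subunit proteins particular to mitochondria, 9 fell and 1 rose in WT, and 6 fell and 1 rose in HT, with medians of -0.11 and -0.06. Of the 16 small subunit proteins with a bacterial homologue, 7 fell in WT and 5 in HT, with medians of -0.11 and -0.06. Of the 10 mitochondrial small subunit proteins, 2 fell in WT, and 1 fell and 1 rose in HT, with medians of -0.08 and -0.05. Mrps36 did not pass the test in either genotype, at -0.10 (adjusted p = 0.173) and -0.12 (adjusted p = 0.0818). Differences between these classes were not tested.

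Mrpl33, a small large subunit protein with a bacterial homologue (chr5:31596935-31664384, plus strand, GRCm38), had the strongest change of the group. In WT vehicle its normalized count had a lowest value of 506, a median of 581 and a highest of 631, and in WT fluoxetine these were 389, 401 and 498. In HT vehicle they were 488, 596 and 697, and in HT fluoxetine 342, 405 and 489. All 9 fluoxetine libraries lay below all 10 vehicle libraries in WT, and in HT only the lowest vehicle library, HT vehicle female 1, fell within the fluoxetine range. Mrpl33 fell by 0.45 in WT (SE 0.0579, adjusted p = 1.75e-07) and by 0.54 in HT (SE 0.0561, adjusted p = 1.07e-09) on the log2 scale, a fold of 0.733 and 0.686.

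Mrpl53, a large subunit protein particular to mitochondria (chr6:83109040-83109939, plus strand), had values of 431, 463 and 488 (lowest, median, highest) in WT vehicle and 298, 376 and 391 in WT fluoxetine. In HT vehicle the values were 370, 434 and 502, and in HT fluoxetine 340, 355 and 396. The WT groups did not overlap and the HT groups did. Mrpl53 fell by 0.39 in WT (SE 0.0543, adjusted p = 8.7e-07) and by 0.27 in HT (SE 0.0527, adjusted p = 0.000204).

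Mrpl20, whose bacterial counterpart acts early in large subunit assembly (chr4:155802878-155809975, plus strand), had values of 1054, 1166 and 1361 in WT vehicle and 822, 978 and 1059 in WT fluoxetine. In HT they were 947, 1200 and 1297 with vehicle and 797, 959 and 1064 with fluoxetine. The groups overlapped in both genotypes, in WT only by the narrow margin between 1054 and 1059. Mrpl20 fell by 0.31 in WT (adjusted p = 5.21e-06) and by 0.30 in HT (adjusted p = 5.63e-06).

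Among the other large subunit genes with the smallest p, all of them lower in both genotypes, were Mrpl42, Mrpl11 and Mrpl12. Mrpl42 is particular to mitochondria, and the bacterial counterpart of Mrpl12 is part of the stalk that recruits translation factors. Mrpl42 had log2 changes of -0.23 in WT and -0.19 in HT, Mrpl11 of -0.23 and -0.25, and Mrpl12 of -0.24 and -0.15. Mrpl27, whose bacterial counterpart sits near the peptidyl transferase centre, had -0.25 and -0.19, and Mrpl22, whose bacterial counterpart lines the exit tunnel, had -0.20 and -0.22. Mrpl13 had -0.23 and -0.19. Adjusted p over these 6 genes ran up to 0.00219 in WT (Mrpl22) and 0.0191 in HT (Mrpl12).

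In the small subunit, Mrps18c, a homologue of bacterial S18 (chr5:100798627-100804471, plus strand), had values of 331, 357 and 401 in WT vehicle, 257, 293 and 375 in WT fluoxetine, 331, 385 and 417 in HT vehicle and 249, 306 and 337 in HT fluoxetine. The groups overlapped in each genotype, in HT by 331 against 337. Mrps18c fell by 0.28 in WT (adjusted p = 0.000345) and by 0.35 in HT (adjusted p = 1.29e-05). Mrps33, particular to mitochondria (chr6:39801804-39810988, minus strand), had 1231, 1293 and 1403 in WT vehicle and 1052, 1131 and 1188 in WT fluoxetine, with no overlap, and 1147, 1312 and 1485 in HT vehicle and 1033, 1148 and 1293 in HT fluoxetine, which overlapped. Mrps33 fell by 0.22 in WT (adjusted p = 1.45e-05) and by 0.17 in HT (adjusted p = 0.000354). Mrps17, a homologue of bacterial S17, fell by 0.22 and 0.15.

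**Figure D2:**
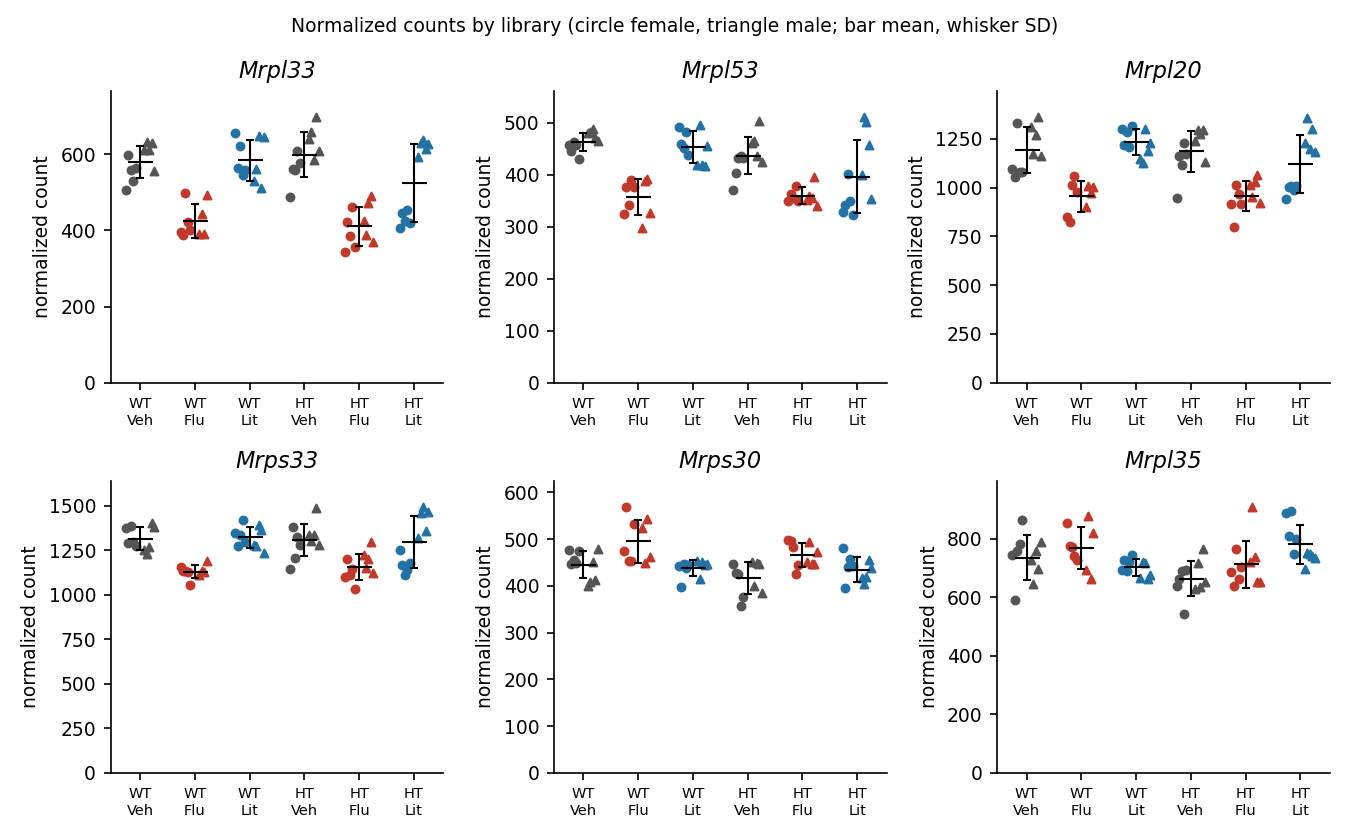
Normalized counts (y axis, from 0) of 6 genes by genotype and drug (x axis; Veh vehicle, Flu fluoxetine, Lit lithium); each point is a library, circles female and triangles male, with the group mean as a bar and the SD as whiskers. Mrpl33 with fluoxetine reaches at most 498 in WT, below the lowest WT vehicle library at 506, and HT lithium splits by sex.

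Mrps30 went the other way. This gene (chr13:118378381-118387252, minus strand) encodes a large subunit protein particular to mitochondria. Its values were 400, 450 and 478 in WT vehicle against 449.6, 474 and 569 in WT fluoxetine, and 358, 427 and 451 in HT vehicle against 424, 462 and 498 in HT fluoxetine. The groups overlapped in both genotypes, with medians higher under fluoxetine. Mrps30 rose by 0.15 in WT (SE 0.0481, adjusted p = 0.0238) and by 0.16 in HT (SE 0.0467, adjusted p = 0.0119). The WT call is lost without WT fluoxetine female 2 (adjusted p = 0.0633), female 5 (0.0514), male 1 (0.0582), which is among the libraries that stand apart, or male 3 (0.0749). It is also lost with a length and GC trend removed from each library (0.10, adjusted p = 0.235), while the HT call is kept (adjusted p = 0.0251). With each library's length slope as a covariate both calls are lost (adjusted p = 0.653 in WT and 0.161 in HT). Mrps34, a small subunit protein, rose in HT by 0.17 (adjusted p = 0.0361) and was at -0.01 in WT (adjusted p = 0.926). Mrpl35 was at 0.06 (adjusted p = 0.538) and 0.10 (adjusted p = 0.236).

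RefSeq promoter entries (250 bases before to 50 after the start, GRCm38.p6) were found for 69 of the 78 genes. They were searched on both strands for short core words of 4 factors known to bind promoters of nuclear genes for mitochondrial proteins or housekeeping genes. The ETS word bound by GABP, CCGGAAG, was in 26 of 69 (37.7%), against 9.93% of 27025 genes with an entry and 17.6% of tested genes. The NRF1 word, GCATGCGC, was in 8 (11.6%) against 3.05% and 5.46%, the YY1 word, AAGATGGC, in 12 (17.4%) against 3.19% and 4.63%, and the Sp1 word, GGGCGG, in 34 (49.3%) against 38.2% and 65.8%. The searched words share no overlap in the windows printed here. Averaged over both genotypes, 40 of the 78 genes fell with fluoxetine, where 13.2% of all genes fell. The ETS word was in 15 of the 37 of these with an entry and in 11 of 31 that did not pass. The windows below run from 80 bases before to 10 after the RefSeq start and show 4 genes that fell in both genotypes beside Mrps30, which rose; they were chosen after their values and matches were seen. Capitals mark the ETS word (CCGGAAG or its reverse complement CTTCCGG) and the NRF1 word (as GCGCATGC); no searched word is in the Mrps30 window. A match is a description of letters and not evidence of binding.
Mrpl33, chr5:31613871-31613960, plus strand: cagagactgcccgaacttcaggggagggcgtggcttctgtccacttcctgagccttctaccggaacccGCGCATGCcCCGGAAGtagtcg
Mrpl53, chr6:83109028-83109117, plus strand: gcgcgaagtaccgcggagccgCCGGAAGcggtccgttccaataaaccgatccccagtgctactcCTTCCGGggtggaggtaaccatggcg
Mrpl22, chr11:58171584-58171673, plus strand: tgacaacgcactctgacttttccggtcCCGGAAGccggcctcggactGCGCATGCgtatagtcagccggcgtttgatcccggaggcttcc
Mrpl27, chr11:94653711-94653800, plus strand: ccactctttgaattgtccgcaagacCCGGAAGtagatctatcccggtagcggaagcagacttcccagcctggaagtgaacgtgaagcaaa
Mrps30, chr13:118387243-118387332, minus strand: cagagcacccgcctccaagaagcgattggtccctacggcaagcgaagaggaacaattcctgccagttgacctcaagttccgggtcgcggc

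The WT and HT fluoxetine comparisons share no library, and their changes can be set side by side. The genes that fell in both were 17, which is 53.1% of the 32 in WT and 77.3% of the 22 in HT: Mrpl11, Mrpl12, Mrpl13, Mrpl20, Mrpl22, Mrpl27, Mrpl33, Mrpl36, Mrpl40, Mrpl41, Mrpl42, Mrpl46, Mrpl53, Mrps17, Mrps18c, Mrps21 and Mrps33. The sign was the same in both genotypes for 69 of 78 genes, 63 below and 6 above 0, and for 70% of all tested genes. Across the 78 genes the 2 sets of changes had a Pearson correlation of 0.72 and a Spearman correlation of 0.71, against 0.52 and 0.51 across all tested genes. These are descriptions, since genes share libraries and are not independent. The overlap of lower calls over all tested genes was not computed, so 53.1% and 77.3% have no such share to be read against.

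No gene of the group differed in its fluoxetine response between genotypes. The difference HT minus WT had 0 of 78 genes called and 5 at an unadjusted p under 0.05, where 0% of all genes were called and 1291 of 16919 had such a p (limma). The smallest p belonged to Mrpl57, a mitochondrial large subunit protein, at 0.32 (adjusted p = 0.576), with -0.23 in WT (adjusted p = 0.0571) and 0.09 in HT (adjusted p = 0.539). Mrps34 had a difference of 0.18 and Mrpl38 of 0.15, each with an adjusted p of 0.631.

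**Figure D3:**
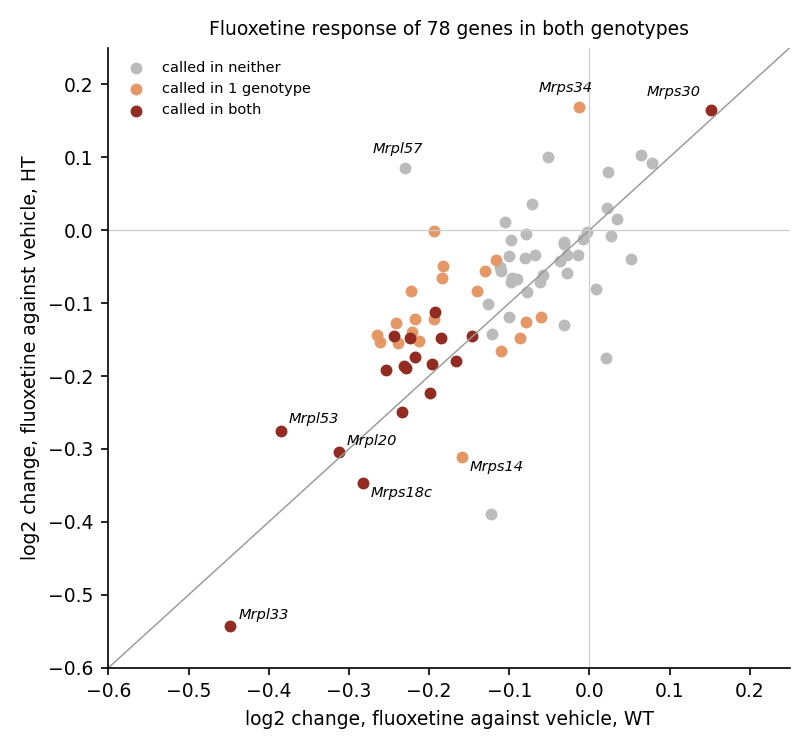
Log2 change in fluoxetine against vehicle of each of the 78 genes in WT (x axis) and HT (y axis), coloured by the number of genotypes in which the gene was called; the line marks equal change. Of the points, 63 lie below 0 in both genotypes, Mrpl33 is farthest from 0, and Mrps30 is above 0 in both.

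Both sexes showed lower calls with fluoxetine. In WT, 19 genes fell in females, where 3.98% of all genes fell, and 11 in males, where 3.32% fell. In HT, 11 fell and 1 rose in females, where 4.43% and 4.31% of all genes did, and 10 fell in males, where 2.39% fell. Mrpl33, Mrpl20 and Mrps33 fell in each of these 4 comparisons, Mrpl33 by 0.39 and 0.51 in WT females and males and by 0.51 and 0.58 in HT. The gene that rose in HT females was Mrps30, by 0.21. Mrpl23, whose value is uncertain, was the lowest in HT males, at -0.81 (adjusted p = 0.0152). The sexes themselves did not differ in the fluoxetine response for any of the 78 genes, where 0% of all genes did (limma). Of the 78, 2 had an unadjusted p under 0.05, against 12.7% of all genes.

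Transcript length moved with these changes. The 21 genes with transcripts of 750 nt or less had a median log2 change of -0.21 in WT and -0.18 in HT, and 15 and 11 of them fell. Of all tested genes of that length, 24.1% fell in WT and 21.5% in HT, with medians of -0.10 and -0.07. The 34 genes over 750 and up to 1500 nt had medians of -0.10 and -0.06, with 14 and 8 lower, where 15.7% and 13.2% of all genes of that length fell. The 23 genes over 1500 nt had medians of -0.06 and -0.03, with 3 lower in each genotype, where 2.96% and 3.54% of all genes fell. Across the 78 genes the log2 change and log2 transcript length had a Pearson correlation of 0.49 in WT and 0.52 in HT, as a description.

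**Figure D4:**
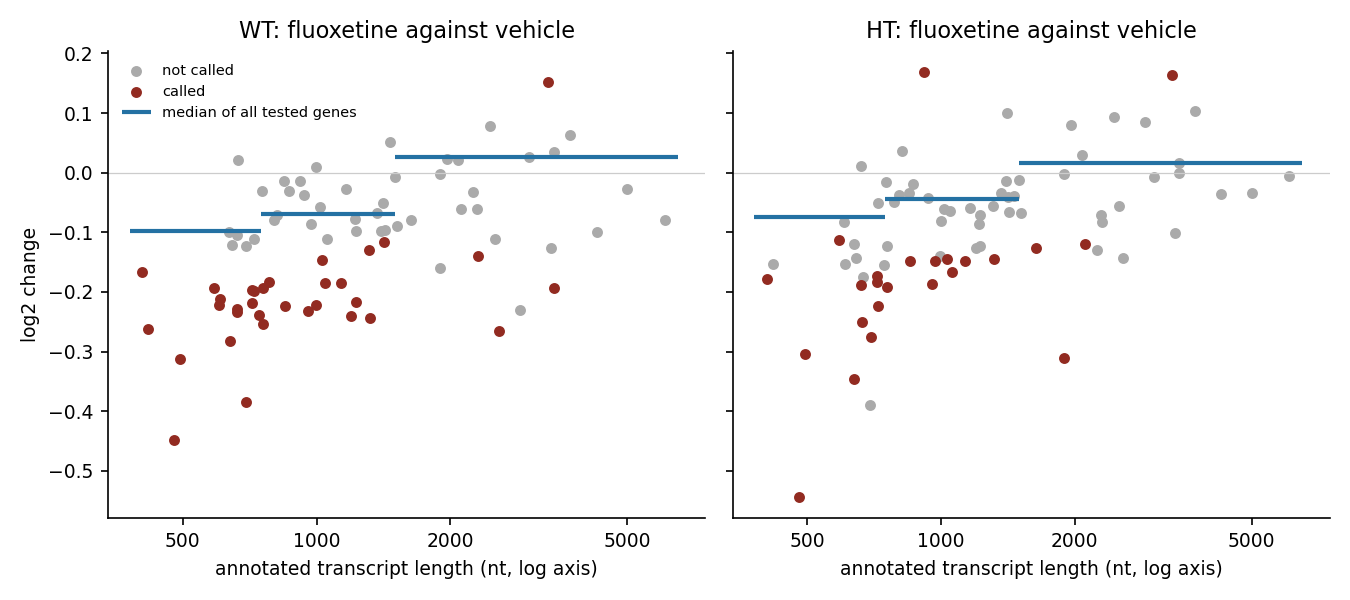
Log2 change in fluoxetine against vehicle (y axis) of the 78 genes by annotated transcript length (x axis, log scale) in WT and HT; blue bars are the medians of all tested genes up to 750, over 750 up to 1500 and over 1500 nt. In the shortest class the members' medians (-0.21 and -0.18) lie below those of all genes (-0.10 and -0.07).

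Libraries themselves differed in this respect. The length slope, fitted in each library to the log2 deviations of genes with means of 250 or more against log2 transcript length, was -0.0382 to -0.00981 in WT vehicle and 0.0201 to 0.0621 in WT fluoxetine. These ranges do not overlap, so in WT the drug and the length slope cannot be told apart. In HT they overlapped, at -0.0441 to 0.0492 with vehicle and -0.00557 to 0.0441 with fluoxetine, where the highest vehicle slope was that of HT vehicle female 1, the library with the low level of the group. With a length and GC trend removed from each library, 17 genes fell in WT (median -0.07, 9.54% of all genes called), 15 of them among the original 32, and 12 fell and 2 rose in HT, all 12 among the original 22, where 11.9% of all genes were called in either direction. Those that fell in both genotypes were then 8: Mrpl12, Mrpl13, Mrpl20, Mrpl27, Mrpl33, Mrpl42, Mrpl53 and Mrps18c, with Mrpl33 at -0.35 and -0.45. With the length slope as a covariate no gene of the group passed in WT, where the calls over all genes dropped from 2500 to 7, and 8 passed in HT, 4 lower and 4 higher, where 9.96% of all genes were called, a share near that of the 78 genes. With this covariate the median log2 change of the 78 genes went from -0.11 to 0.0018 in WT, with 39 genes below 0. In HT the median went from -0.08 to -0.0039, with 40 below 0. Mrpl33 was then at -0.26 in WT (adjusted p = 0.206) and -0.42 in HT (adjusted p = 8.38e-05), and Mrpl53 at -0.16 (adjusted p = 0.399) and -0.13 (adjusted p = 0.161).

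**Figure D5:**
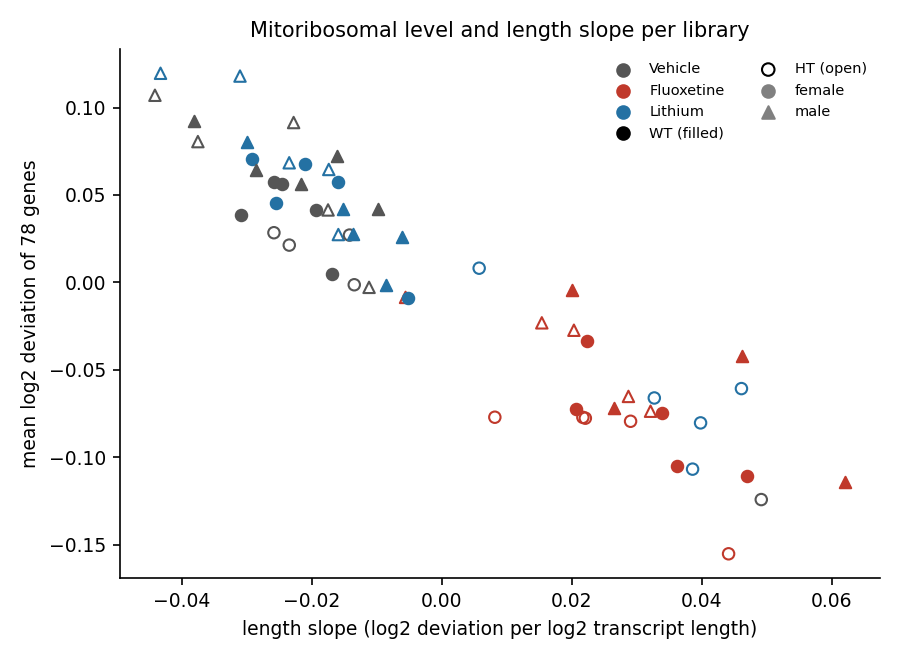
Mean log2 deviation of the 78 genes (y axis) against the length slope (x axis) of each library, by drug (colour), genotype (filled WT, open HT) and sex (circle female, triangle male). WT fluoxetine libraries have slopes of at least 0.0201 and WT vehicle libraries of at most -0.00981, and HT vehicle female 1 (slope 0.0492, level -0.124) lies among the fluoxetine libraries.

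Fluoxetine was also set against lithium, a comparison that uses no vehicle library but the same fluoxetine libraries as before. In WT, 36 genes were lower and 1, Mrps30, was higher with fluoxetine, where 11.2% of all genes were lower and 10.1% higher, with a median of -0.11. In HT, 16 were lower and 0 higher, where 6.88% of all genes were lower and 6.18% higher, with a median of -0.08. WT lithium length slopes (-0.0300 to -0.00521) did not overlap those of WT fluoxetine either. With the length and GC trend removed 19 genes were lower in WT and 12 in HT, where 18.5% and 13.5% of all genes were called in either direction. With the slope covariate 3 were lower and 1 higher in WT and 9 lower and 1 higher in HT, where 5.09% and 14.3% were called. Of the 32 genes that fell against vehicle in WT, 28 were also lower against lithium, and of the 22 in HT, 13 were. Both comparisons share the fluoxetine libraries, so such overlaps are partly built in, and those over all tested genes were not computed. Lower in all 4 fluoxetine comparisons were 11: Mrpl11, Mrpl12, Mrpl20, Mrpl33, Mrpl36, Mrpl42, Mrpl46, Mrps17, Mrps18c, Mrps21 and Mrps33. Against lithium, Mrpl33 was lower by a log2 change of -0.46 in WT (adjusted p = 8.05e-08) and -0.34 in HT (adjusted p = 3.66e-05). All fluoxetine libraries lay below all lithium libraries in WT for 8 genes (Mrpl12, Mrpl20, Mrpl27, Mrpl28, Mrpl33, Mrpl42, Mrpl53 and Mrps33; 1.28% of all genes) and in HT for 0 (0.195%). Against vehicle this was so for 6 genes in WT (Mrpl11, Mrpl24, Mrpl33, Mrpl42, Mrpl53 and Mrps33, 0.975% of all genes) and 0 in HT (0.171%). Without HT vehicle female 1, left out here after its low values were seen, it was so for 5 in HT (1.11%).

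Lithium against vehicle, which shares the vehicle libraries with the fluoxetine comparison, moved few of these genes. In WT 1 of 78 fell and 0 rose, where 0.892% of all genes fell and 1.33% rose, and the median log2 change was -0.01. That gene was Mrpl17, a homologue of bacterial L17 (chr7:105803206-105811099, minus strand), with values of 605, 747 and 964 in WT vehicle and 524, 607 and 696 in WT lithium, which overlap. Mrpl17 fell by 0.29 (SE 0.0824, adjusted p = 0.0414), and in HT it was at -0.14 (adjusted p = 0.35). The call was lost on leaving out any of 13 of the 20 libraries, with adjusted p up to 0.125 without WT vehicle male 3. Of the other genes with the smallest p for lithium over both genotypes, Mrps10 was at -0.13 in WT and -0.09 in HT, Mrps16 at -0.09 and -0.14 and Mrpl44 at -0.09 and -0.09, none of them past the test.

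In HT lithium, 1 gene rose and 1 fell, where 2.75% of all genes rose and 2.26% fell, and the median was -0.02. Mrpl35, a large subunit protein with a bacterial homologue (chr6:71812997-71826969, minus strand), had values of 543, 658 and 766 in HT vehicle and 696, 751 and 893 in HT lithium, which overlap. Mrpl35 rose by 0.24 (SE 0.0569, adjusted p = 0.01), and Mrpl33 fell by 0.21 (SE 0.0561, adjusted p = 0.0221). The Mrpl33 call is lost with the length and GC trend removed and with the slope covariate, where 0 of 78 genes were lower. HT vehicle female 1 bears on this count: without it 6 genes passed, and without HT vehicle female 4 only 1 did. Counts over all genes without these libraries are not given here, so 6 and 1 have no share to be read against.

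HT lithium libraries split by sex. Mrpl33 had 406, 445, 423, 452 and 418 in the 5 HT lithium females and 593, 629, 638, 613 and 626 in the 5 males, with no overlap, while WT lithium females (544 to 655) and males (511 to 647) overlapped. The group's mean log2 deviation was -0.107 to 0.00811 in HT lithium females and 0.0273 to 0.120 in the males. The length slope of HT lithium libraries split in the same way, at 0.00576 to 0.0461 in females and -0.0433 to -0.0159 in males. In HT lithium the sex and the length slope therefore cannot be told apart. The group's level did not overlap between the sexes in HT fluoxetine either, at -0.155 to -0.0771 in females and -0.0737 to -0.00860 in males. Length slopes of the HT fluoxetine sexes overlapped, at 0.00817 to 0.0441 in females and -0.00557 to 0.0321 in males. The comparisons by sex that follow were chosen after these values were seen.

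In HT females 5 genes fell with lithium and 1 rose, where 2.35% of all genes fell and 2.1% rose, and in HT males 0 passed, where 0.0177% of all genes did, with 0 at an unadjusted p under 0.05 (limma). Over all genes 8.79% had such a p in HT males. The genes that fell in HT females were Mrpl13, Mrpl22, Mrpl27, Mrpl33 and Mrpl53, and Mrpl35 rose. Mrpl33 fell by 0.38 in females (adjusted p = 0.00398) and was at -0.04 in males (adjusted p = 0.946). With the length and GC trend removed 2 genes were lower and 1 higher in HT females, where 3.2% of all genes were called in either direction, and with the slope covariate 0 were lower and 1 higher, where 2.07% were. The difference between the sexes itself did not pass for any of the 78 genes (7 at an unadjusted p under 0.05, 0% of all genes called), and for Mrpl33 it was 0.34 (adjusted p = 0.414). Over all genes 8.16% had such an unadjusted p. Against WT lithium females, 8 genes were lower in HT lithium females, where 2.57% of all genes were: Mrpl20, Mrpl22, Mrpl27, Mrpl33, Mrpl42, Mrpl53, Mrps11 and Mrps33. With the length and GC trend removed 4 of these 8 remained, where 2.05% of all genes were called in either direction, and with the length slope as a covariate 0 did, where 0.0296% were called and the median went from -0.10 to 0.01. Between HT and WT lithium males 0 passed, where 0.0118% of all genes did (7 at an unadjusted p under 0.05). In WT the lithium response gave 0 calls in females and 0 in males, where 1.18% and 0.065% of all genes were called, with 9 and 8 of the 78 at an unadjusted p under 0.05. Over all genes 14.6% and 10.7% had such a p. Between fluoxetine and lithium in HT females 0 of 78 passed, where 4.34% of all genes did, with 11 at an unadjusted p under 0.05 and a median of -0.02, and in HT males 13 were lower with fluoxetine, where 3.98% of all genes were.

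Genotype alone gave no call among these genes. In HT against WT with vehicle 0 of 78 passed, where 0.00591% of all genes did, and 6 had an unadjusted p under 0.05, as had 3.42% of all genes (limma). All 6 were lower in HT. The median log2 change was -0.02, with 52 genes below 0. The smallest p belonged to Mrpl35 (-0.15), Mrpl51 (-0.16) and Mrpl57 (-0.20), the last 2 particular to mitochondria, each with an adjusted p of 1. With fluoxetine 0 genes differed between HT and WT, where 0.0118% of all genes did (7 of the 78 at an unadjusted p under 0.05, against 15.7% of all genes). With lithium 1 did, where 0.319% of all genes were lower: Mrpl53 was lower in HT by a log2 change of -0.21 (adjusted p = 0.0468). That call is lost with the length and GC trend removed and with the slope covariate, where 0 of 78 passed. The lithium response did not differ between genotypes for any of the 78 genes, where 0% of all genes were called (8 at an unadjusted p under 0.05, against 6.73% of all genes). Its smallest p belonged to Mrpl35 at 0.30 (adjusted p = 0.49), Mrpl33 at -0.22 (adjusted p = 0.618) and Mrps11 at -0.19 (adjusted p = 0.618).

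Among mitochondrial ribosomal proteins with other symbols, 3 of 5 fell with fluoxetine in WT and 2 in HT, where 7.78% and 7.38% of all genes fell. Chchd1, a small subunit protein with transcripts of 587 nt, had values of 353, 380 and 414 in WT vehicle, 283 to 380 in WT fluoxetine, 336 to 449 in HT vehicle and 244 to 342 in HT fluoxetine, which overlap in each genotype. Chchd1 fell by 0.23 in WT (adjusted p = 0.00262) and by 0.44 in HT (adjusted p = 4.82e-08). Aurkaip1, another small subunit protein, fell by 0.23 and 0.12, and Dap3, the GTP-binding protein of the small subunit, fell by 0.14 in WT (adjusted p = 0.0161) and was at -0.10 in HT (adjusted p = 0.0901). Ptcd3, of the small subunit, was at -0.06 and -0.03 and Gadd45gip1, of the large subunit, at 0.02 and 0.05, none past the test, and both have transcripts over 1500 nt.

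The factors that serve the ribosome form 3 further lists. Counts in this paragraph are to be read against all tested genes. Of those, 7.78% fell and 7% rose in WT, and 7.38% fell and 6.63% rose in HT. Of 13 tested translation factors 2 fell in WT and 1 in HT, of 24 assembly and rRNA modification factors 3 fell in WT and 2 fell and 1 rose in HT, and of 22 mitochondrial aminoacyl-tRNA synthetases 2 fell in WT and 0 passed in HT. Median log2 changes of these 3 lists lay between -0.06 and 0.01. Tsfm, the elongation factor that recharges the mitochondrial elongation factor Tu, fell by 0.21 and 0.22, and Mterf4, which acts in large subunit assembly, fell by 0.23 and 0.16. Rpusd4, a pseudouridine synthase that modifies the large rRNA, fell by 0.23 in HT (adjusted p = 0.00804) and was at -0.18 in WT (adjusted p = 0.0526). Lars2, the mitochondrial leucyl-tRNA synthetase, fell by 0.64 in WT (SE 0.223, adjusted p = 0.0426) and was at -0.49 in HT (adjusted p = 0.121). Its values varied widely, from 9155 to 29232 in WT vehicle and from 7340 to 14977 in WT fluoxetine, which overlap. Another list held 11 tested genes of mitochondrial transcription and mRNA stability. Of these 1 fell and 1 rose in WT and 1 fell in HT, with medians of -0.01 and 0.02. The gene that fell was Slirp, which with Lrpprc stabilizes mitochondrial mRNAs. Slirp fell by 0.52 in WT (adjusted p = 3.97e-07) and by 0.41 in HT (adjusted p = 1.91e-05). Lrpprc rose by 0.10 in WT (adjusted p = 0.0261) and was at 0.08 in HT (adjusted p = 0.1). Slirp transcripts are 582 nt long and those of Lrpprc 4393 nt. Of the 13 mRNAs encoded by mitochondrial DNA, 2 rose in WT and 5 in HT and 0 fell, with changes from -0.39 to 0.48 in WT and -0.71 to 0.77 in HT.

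Cytoplasmic ribosomal proteins, whose transcripts are short as well, give a comparison from the other ribosome. Of 76 tested, 60 fell with fluoxetine in WT and 55 in HT, where 7.78% and 7.38% of all genes fell. Their medians were -0.26 and -0.25, against -0.11 and -0.08 for the mitochondrial group. With lithium 0 fell in WT and 33 fell in HT, with medians of -0.01 and -0.14, where 0.892% and 2.26% of all genes fell. In HT the lithium count was 42 in females (median -0.22), where 2.35% of all genes fell. It was 0 in males (median -0.06), where 0.0177% of all genes were called in either direction. The difference between the 2 groups of ribosomal proteins was not tested.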

How the data were processed

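Prefrontal cortex mRNA was sequenced in 59 libraries from a stranded TruSeq kit, per the labels' protocols. The deposited table holds signal: estimated gene counts normalized by the authors between libraries. The tools named per the submitters' processing notes are DESeq2 1.19.11, Salmon 0.11.2 and R 3.6.0, and the genome build is GRCm38; their settings are not given in the sources used here. Of 51456 identifiers, 51285 matched GENCODE M21 gene models.

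Values were analysed as log2(value + 1) for genes with a mean of at least 10, so changes are on that scale. A limma 3.58.1 model (R 4.3.3; trend, robust empirical Bayes, 12 group means of genotype, drug and sex, 47 residual degrees of freedom) gave 28 comparisons, two-sided, averaged over the sexes unless a sex is named. Genes with an adjusted p under 0.05 were called. The fit was tested on simulated data. SE come from the model and SD from libraries, so counting error is contained in both. Python 3.11.15 was used for annotation and plots. Transcript length is the median over a gene's protein-coding transcripts.

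The genes and lists were chosen with earlier results of these data known. Named genes were the 12 with the smallest p for fluoxetine over both genotypes, those moving the opposite way at an unadjusted p under 0.05, the 4 with the smallest p for lithium, the 3 for genotype and for each genotype difference, the 5 highest and 5 lowest per kilobase, ribosomal proteins with other symbols, and the 6 other mitochondrial translation genes with the smallest p for fluoxetine. Genes named otherwise were called in a comparison and named after their values were seen.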

Additional observations from a re-analysis of the deposited data

Results flagged for a closer look

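Libraries far from the others of their group were sought in 120 groups of 4 or 5 libraries, over the mean level of the 78 genes and 9 genes whose values are discussed. Chance marks about 1 in 20 groups, here 6, and 9 were marked. The mean log2 deviation of the 78 genes was -0.155 in HT fluoxetine female 1, against -0.0795 to -0.0771 in the other 4, and -0.124 in HT vehicle female 1, against -0.00137 to 0.0284. Mrpl33 was low in WT vehicle male 5, at 556 against 610 to 631. Mrpl20 was low in HT lithium female 1, at 943 against 989.5 to 1007, and high in WT vehicle female 3, at 1331 against 1054 to 1096. Mrps33 was low in WT fluoxetine female 5, at 1052 against 1128 to 1158. Mrps30 was low in WT lithium female 2, at 397 against 439 to 446, and in WT lithium male 2, at 415 against 445 to 453. Mrpl17 was low in HT lithium female 2, at 462 against 645 to 672.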

How the results depend on the processing

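Counts of called genes in the text are split by direction; the counts here take both directions together. For fluoxetine the count was 33 in WT and 24 in HT, and it came to 17 and 14 with the length and GC trend removed, 0 and 8 with the length slope as covariate, 19 and 12 in females only and 11 and 10 in males only. For lithium in WT the count of 1 became 0 without a filter on low values, with the slope covariate, in females only and in males only. For lithium in HT the count of 2 became 1 with the length and GC trend removed, 6 in females only, 0 in males only and, an alternative chosen after seeing the data, 9 without HT vehicle female 1 and the 2 libraries that stand apart. Comparisons by sex rest on at most 5 libraries a group; the cause of the other shifts was not tested. The other alternatives (pseudocounts, row mean of at least 50, rescaling, quantile normalization, no robust option, compared groups only) left these counts within 1.5 times, and the genotype comparison and both genotype differences stayed at 0 throughout.

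Leaving out 1 library gave 27 to 32 genes for fluoxetine in WT, 20 to 28 in HT, 0 to 1 for lithium in WT, 1 to 6 for lithium in HT and 0 to 0 for the genotype comparison and both differences. Shares over all genes are not given here for these fits. Nor are they for the fit without HT vehicle female 1 and the 2 libraries that stand apart. The 45 results for named genes gave 630 values under the other settings, of which 575 kept direction and call status, 51 lost the call and 4 reversed: Mrpl27 in WT fluoxetine became 0.0113 and Mrpl12 in HT fluoxetine 0.0013 with the slope covariate, Mrpl35 in WT fluoxetine -0.0060 with the length and GC trend removed, and the Mrpl33 genotype difference for lithium 0.0364 in males only. Of the 51 lost calls, 22 came with the slope covariate and 5 with the length and GC trend removed. Another 12 came in males only and 7 in females only. Named results not called in the main fit had no call to lose, so 575 is not a count of kept calls.

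With the replicate number as a block the counts were 32 and 23 for fluoxetine in WT and HT, 0 and 2 for lithium and 0 for the rest. Same-numbered libraries of a sex showed little shared deviation (correlations -0.182 to 0.288, median 0.0222, 10 of 49 above 0.1), and the main fit did not use the number as a pairing. Females were not set against males of the same number, and such correlations cannot exclude a shared litter. Depth per library is not given; the Mrpl23 value also depends on its pseudogene.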
